A study of Homo sapiens with 2 samples.

Results

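The extrinsic apoptosis pathway starts at death receptors in the cell membrane, and 9 genes of its first steps were followed here in DLD-1 colorectal carcinoma cells with and without induced p53. They comprise 5 receptor genes (FAS, TNFRSF10A, TNFRSF10B, TNFRSF10C and TNFRSF10D) and 4 genes of the signalling complex that forms beneath the receptors (FADD, CASP8, CASP10 and CFLAR). A probe set is a group of short oligonucleotides that are read together as 1 signal. Every probe set was included if the platform annotation assigned it to 1 of these genes alone. This gave 40 probe sets for 9 genes, of 41091 probe sets with a single symbol that cover 19775 genes.

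All cells carried a stably transfected tet-off construct for wild-type p53, which tetracycline keeps silent, and DLD-1 cells carry a mutated p53 of their own. The p53 on cells had been cultured without tetracycline for 9 h, and the p53 off cells were kept with it. Each condition was measured on 1 Affymetrix array of total RNA, so the 2 conditions differ in 1 culture each and no difference below has a replicate check, an error between cultures or a test. The labels do not say whether the line is a single clone. In such bulk RNA, fewer cells that express a gene and less RNA per cell cannot be told apart.

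As background, ligand binding gathers death receptors into trimers whose death domains recruit the adaptor FADD. FADD in turn binds procaspase-8 and procaspase-10 through death effector domains, and the caspases activate each other and cut effector caspases and BID. CFLAR resembles caspase-8 but lacks protease activity and limits this step, and the decoy receptors bind the TRAIL ligand without passing on a full death signal. FAS and TNFRSF10B are known as direct p53 target genes.

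Of the 5 receptor genes 4 were higher with p53 on, and TNFRSF10C gave no ratio, whereas the genes of the complex had ratios on both sides of 0. Signals were MAS5 values, and a signal under 112.4, the 50th percentile of all signals, was raised to that floor. A probe set with both signals under the floor has no ratio, and one with a single signal under it has a ratio that is a lower bound, written "at least". Of the 40 probe sets, 32 were measured in this sense and 8 were not. Higher by 2-fold or more with p53 on were 14 of the 32, and 1 was lower by 2-fold or more, with 17 in between. Scaled to hybridization spike-ins, 7 were higher and 4 lower to that extent. Under that scaling 5.86% of all measured genes, each read on 1 probe set, were higher and 41.4% lower. Without that scaling, 14.0% of all 25962 measured probe sets were higher by 2-fold or more and 13.0% lower by 2-fold or more. For 6 of the 32, 1 signal lay under the floor, and 3 of these are among the 14, so they entered only because they were bright with p53 on. The median log2 ratio, p53 on over p53 off, was 0.79 over the 32 member probe sets and -0.0097 over all measured ones.

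The higher signals lay mainly in the receptors. Of 14 measured receptor probe sets, 10 were higher by 2-fold or more, none was lower by 2-fold or more, and 14 had a ratio above 0. For FAS, TNFRSF10B and TNFRSF10D, 1 probe set each was measured only through its p53 on signal. The ratio of such a probe set could only lie above 0. With the arrays scaled to spike-ins, 11 of the 14 were above 0 and 7 were higher by 2-fold or more. Of 18 measured probe sets of the complex, 4 were higher by 2-fold or more, all of them for CFLAR, 1 was lower by 2-fold or more, and 13 lay between. With each gene read on its brightest probe set (highest mean of both arrays), 4 of the 8 measured genes were higher by 2-fold or more and 1 was lower by 2-fold or more, against 15.3% and 13.5% of 13915 measured genes. Scaled to spike-ins, 3 member genes were higher and 2 lower, against 5.86% and 41.4% of measured genes.

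**Figure D1:**
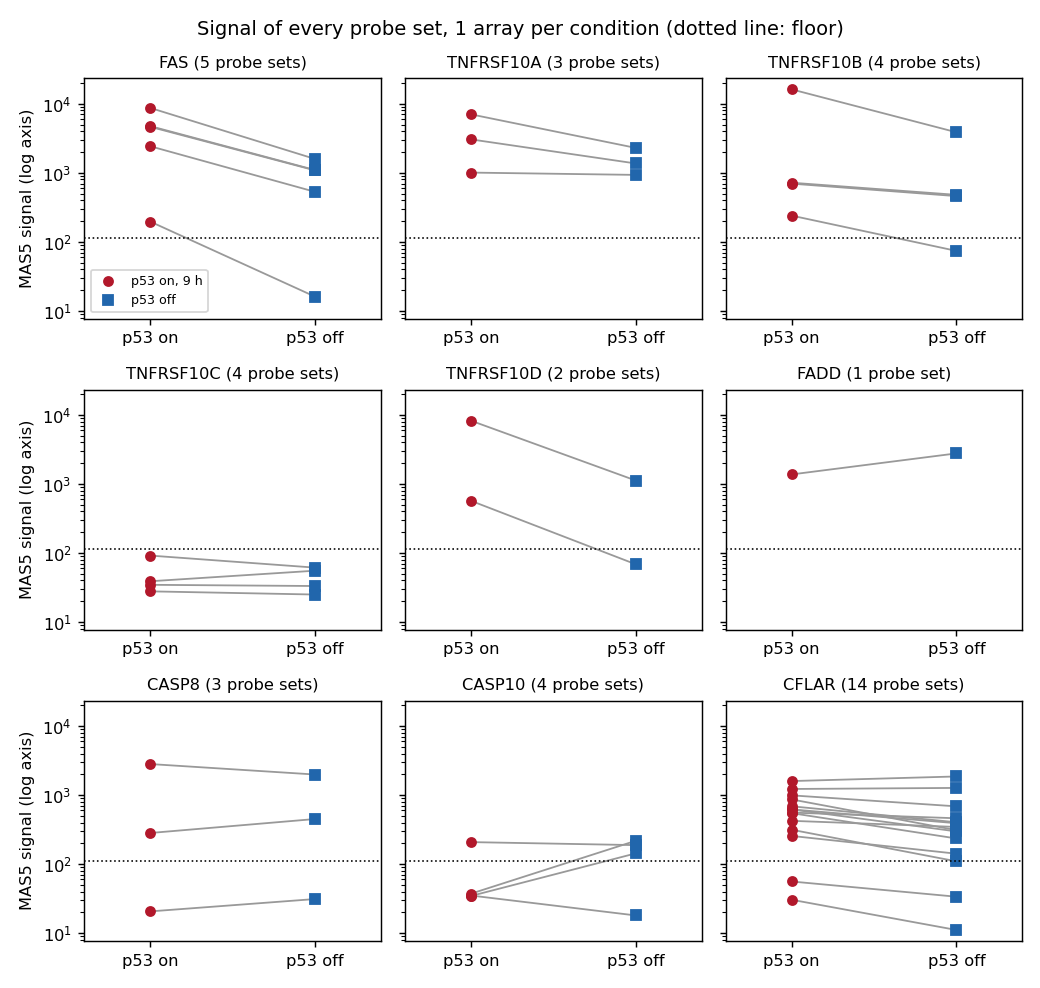
MAS5 signal (log axis) of every probe set of the 9 genes on the p53 on array (circles, left) and the p53 off array (squares, right), with lines joining the signals of 1 probe set and a dotted line at the floor of 112.4. The lines of FAS, TNFRSF10A, TNFRSF10B and TNFRSF10D all run down to the p53 off side, that of FADD runs up, and those of TNFRSF10C stay under the floor.

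FAS encodes the receptor for FAS ligand and was higher on all 5 of its probe sets. Its brightest probe set read 8710.4 with p53 on and 1585 with p53 off, a 5.49-fold difference. The next in brightness read 4747 with p53 on and 1096 with p53 off, or 4.33-fold. A further one read 4642 with p53 on and 1084 with p53 off, or 4.28-fold, and a dimmer one read 2427 with p53 on and 529.7 with p53 off, or 4.58-fold. These 4 bright probe sets were therefore close to one another, with log2 ratios between 2.10 and 2.46. All of them are of the types whose names mark sequence shared between transcripts (_s_at and _x_at). The remaining one was dim, at 196.7 with p53 on and 16.1 with p53 off, and its ratio is at least 1.75-fold. It was measured only through its p53 on signal, so its direction could only be higher.

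Of all measured probe sets, 2.06% had a higher ratio than the brightest one of FAS. Among 777 genes with at least 4 probe sets that lay above the floor on both arrays, 26 had all of them higher by 2-fold or more and 4 had all of them at least 4-fold higher. FAS was 1 of these 4, beside CELF2, FGF18 and GAREM1, which were named after their values were seen. FAS passed with just 4 such probe sets, the lowest at 4.28-fold, and its dim one was left out. Both limits thus lie just where FAS passes, so its place among the 4 genes is a description and no measure of rarity. The count describes agreement between probe sets on the same 2 arrays, not between cultures.

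The start regions of FAS and CASP8 are shown because each holds a match to the p53 half-site, the decamer that p53 binds in pairs. RefSeq sequences of GRCh38.p14, 250 bases before to 50 bases after an annotated start, were matched for 4 of the 9 genes (FAS, FADD, CASP8 and CFLAR), with 11 start regions between them. The half-site pattern reads the same on both strands, and it was found in 1 of 3 FAS, 1 of 3 CASP8, 0 of 4 CFLAR and 0 of 1 FADD regions, against 6.63% of 35116 regions in the whole table. In the FAS region, chr10:88991181-88991480 on the plus strand, the half-site is followed directly by 10 bases that differ from the pattern at 2 positions. Such a pair, with at most 2 differences in the adjoining decamer, was present in 0.356% of all regions. Capitals mark the 20 bases of the pair in FAS, at chr10:88991309-88991328, which begin 122 bases before this start, and the 10 bases of the single half-site in CASP8.
FAS, chr10:88991181-88991480, plus strand: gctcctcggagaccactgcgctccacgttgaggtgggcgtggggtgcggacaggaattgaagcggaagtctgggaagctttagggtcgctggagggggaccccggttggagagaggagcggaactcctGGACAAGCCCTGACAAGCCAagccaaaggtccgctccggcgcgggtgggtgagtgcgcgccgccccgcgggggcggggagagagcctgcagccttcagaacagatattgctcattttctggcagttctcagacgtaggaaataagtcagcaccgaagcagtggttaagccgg
CASP8, chr2:201257785-201258084, plus strand: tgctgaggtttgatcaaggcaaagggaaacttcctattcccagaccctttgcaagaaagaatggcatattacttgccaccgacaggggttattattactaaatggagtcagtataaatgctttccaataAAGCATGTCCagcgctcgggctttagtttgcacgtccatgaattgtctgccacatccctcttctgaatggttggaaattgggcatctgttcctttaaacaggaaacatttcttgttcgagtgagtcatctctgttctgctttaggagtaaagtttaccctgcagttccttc
The pair in FAS lies after the other 2 annotated FAS starts, and so within the gene as read from them. In the CASP8 region the best adjoining decamer differed from the pattern at 7 positions. It is known that p53 acts on FAS through an element in the first intron, and whether the pair above is that element was not tested. A match is a string of letters, and no binding was measured.

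TNFRSF10B, a TRAIL receptor with a death domain, gave its largest ratio, 4.19-fold, on the brightest probe set, at 16171 with p53 on and 3862 with p53 off. Its other probe sets gave smaller ratios. A much dimmer one read 718.9 with p53 on and 479.5 with p53 off, a log2 ratio of 0.58, and another read 697.1 with p53 on and 459.7 with p53 off, a log2 ratio of 0.60. Both of these are _x_at probe sets, whose oligonucleotides may also match other transcripts, and both had ratios below 0 after scaling to spike-ins, at log2 values of -0.33 and -0.32. The dimmest read 240.0 with p53 on and 73.9 with p53 off and was at least 2.14-fold higher. The direction was thus the same on all 4 as reported, but the size depended on the probe set. For the dimmest, with its p53 off signal under the floor, no other direction was possible.

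TNFRSF10A, the other TRAIL receptor with a death domain, had a ratio of 3.07-fold on the brightest of its 3 probe sets, at 7031 with p53 on and 2294 with p53 off. The next was 2.24-fold higher, at 3051 with p53 on and 1365 with p53 off. The dimmest read 1008 with p53 on and 932.8 with p53 off, a ratio of 1.08. Its 3 ratios thus ran from near no difference to 3-fold. After scaling to spike-ins the log2 ratio of the brightest was 0.70, under the 2-fold line, and that of the dimmest was -0.81.

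TNFRSF10D, a decoy receptor with a truncated death domain, had the largest ratio of the 8 measured genes on their brightest probe sets. The dim FAS probe set, a bound, reached a log2 ratio of 3.53 with a pseudocount of 1, above both TNFRSF10D probe sets. The brightest TNFRSF10D probe set read 8251 with p53 on and 1121 with p53 off, a 7.36-fold difference that 1.13% of all measured probe sets exceeded. The other read 570.4 with p53 on and 68.6 with p53 off and was at least 5.08-fold higher. Across the other ways of processing, the log2 ratio of the brightest ran from 1.96 to 2.98.

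TNFRSF10C, the decoy receptor that is anchored by a lipid and has no death domain, was not measured. Its 4 probe sets reached at most 91.7 with p53 on and at most 61.4 with p53 off, all under the floor. A pair of probe sets assigned to it together with the long noncoding RNA LOC254896 also stayed under the floor, at 86.2 and 70.6 with p53 on and 36.8 and 66.2 with p53 off. Of the 2 decoy genes, a ratio was therefore obtained for TNFRSF10D and not for TNFRSF10C. Because signals of different probe sets are not on 1 scale, the levels of the receptors were not ranked against each other.

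**Figure D2:**
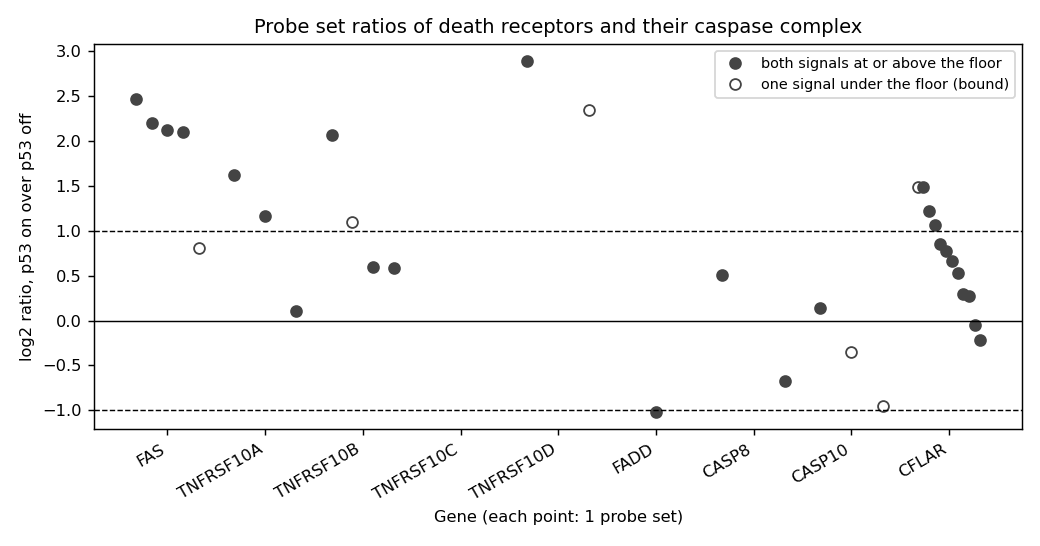
Log2 ratio of p53 on over p53 off for each measured probe set of the 9 genes (filled, both signals at or above the floor; open, 1 signal under it), with dashed lines at 2-fold. Receptor ratios run from 0.11 to 2.88, FADD lies at -1.01, the caspases span 0, and the 12 CFLAR ratios run from -0.22 to 1.49.

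FADD, the adaptor that links receptor and caspase, was the only measured gene of the 8 that was lower by 2-fold or more on its brightest probe set. It was represented by a single probe set, which read 1373 with p53 on and 2770.4 with p53 off, or 2.02-fold lower. This is at the 2-fold line itself. After quantile normalization, loess or a pseudocount equal to the floor, the log2 ratio was -0.93, -0.88 or -0.96, just short of it. After scaling to spike-ins it was -1.93, where 41.4% of all measured genes were lower by 2-fold or more.

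The ratios of the initiator caspases lay on both sides of 0. CASP8, the main initiator caspase of the complex, read 2815 with p53 on and 1984 with p53 off on its brightest probe set, a ratio of 1.42. A dimmer one went the other way, at 282.4 with p53 on and 450.0 with p53 off, or 1.59-fold lower, and the remaining one was under the floor on both arrays. The direction for CASP8 therefore depended on the probe set, and that of the brightest turned to a log2 ratio of -0.41 after scaling to spike-ins.

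CASP10, a close relative of CASP8 and its neighbour in the genome, read 208.4 with p53 on and 188.5 with p53 off on the brightest of its 4 probe sets, a ratio of 1.11. Another read 37.3 with p53 on and 217.8 with p53 off and was at least 1.94-fold lower. A further one read 34.5 with p53 on and 143.2 with p53 off and was at least 1.27-fold lower, and the remaining one was under the floor on both arrays. All CASP10 signals were dim, within 2-fold of the floor or under it. The bounds do not tell whether these 2 probe sets differed by more than 2-fold. The one at 37.3 with p53 on passed 2-fold lower in 6 of the other settings, at log2 ratios of -1.54 (floor at the 40th percentile), -2.52 (pseudocount of 1), -1.14 (pseudocount equal to the floor), -1.04 (quantile normalization), -1.08 (loess) and -1.42 (spike-ins). The one at 34.5 passed it with a pseudocount of 1 alone, at -2.02.

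CFLAR, which encodes the caspase-8 inhibitor cFLIP, had the most probe sets, 14, of which 12 were measured. Of these, 10 had ratios above 0 and 4 were higher by 2-fold or more, while both of the brightest had ratios slightly below 0. The brightest read 1595 with p53 on and 1861 with p53 off, or 1.17-fold lower, and the next read 1225 with p53 on and 1269.7 with p53 off, or 1.04-fold lower. The largest ratio without a bound was 2.79-fold, on a probe set that read 865.2 with p53 on and 309.9 with p53 off. Another was at least 2.80-fold higher, at 315.1 with p53 on and 109.7 with p53 off, the p53 off signal just under the floor. The remaining pair past 2-fold were at 547.6 with p53 on and 235.1 with p53 off, or 2.33-fold, and at 619.8 with p53 on and 297.5 with p53 off, or 2.08-fold.

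The call for CFLAR was thus set by the choice of probe set. The median log2 ratio over its 12 probe sets was 0.72, against -0.22 on the brightest. Of the 12, 10 have names that mark shared sequence, with a median of 0.60, and the other 2 had log2 ratios of 0.86 and 1.48. After scaling to spike-ins 4 of the 12 were above 0 and none was higher by 2-fold or more. CFLAR is spliced into long and short forms, and which form each probe set reports was not analysed here.

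The arrays also differed in ways that reach beyond these genes. The median signal was 121.8 with p53 on and 103.0 with p53 off. The 3' probe set of beta-actin was 7.29 times its 5' probe set with p53 on and 1.37 times with p53 off, and for GAPDH the ratio was 1.77 with p53 on and 0.97 with p53 off. The 18 spike-in probe sets were a median of 1.89 times brighter with p53 on, and scaling to them moves the median log2 ratio of all genes to -0.80, against 0.0035 as reported. The part of these differences in the ratios of the 9 genes was not tested. Of 9 epithelial markers 8 were measured, and their highest signals per gene summed to 172415 with p53 on and 107113 with p53 off. EPCAM, CDH1, KRT8, KRT18 and KRT19 were bright on both arrays, and CDX2 and VIL1 lay above the floor, whereas KRT20 was under it. CEACAM5 was dim, at 187.6 with p53 on and 67.7 with p53 off, the latter under the floor. Markers of other cell types were dim. The highest signals per gene summed to 1064 with p53 on and 556.8 with p53 off over 9 leukocyte genes, of which 4 were measured. They summed to 985.4 with p53 on and 699.5 with p53 off over 8 fibroblast genes, of which 5 were measured, and to 849.1 with p53 on and 439.3 with p53 off over 7 endothelial genes, of which 5 were measured. PTPRC, COL1A1, COL3A1 and KDR were under the floor on both arrays. CD3D, at 242.8 with p53 on and 159.1 with p53 off, THY1, at 141.9 with p53 on and 216.9 with p53 off, and PECAM1, at 224.3 with p53 on and 121.1 with p53 off, were above it on both. LAPTM5 was at least 2.21-fold higher, at 247.9 with p53 on and 62.7 with p53 off, and LUM at least 2.06-fold higher, at 231.4 with p53 on and 49.4 with p53 off. The part of other cells in the receptor ratios was not tested.

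The ratios of other pathway genes lay on both sides of 0. Of 53 such genes in 6 lists, 39 were measured. Higher by 2-fold or more were 5 of them, lower to that extent were 7, and 27 lay between. Scaled to spike-ins, 1 of 38 was higher and 20 were lower to that extent, where 5.86% and 41.4% of all measured genes were. The counts as reported stand beside 15.3% and 13.5% of all measured genes. Their median log2 ratio was -0.17, against 1.06 for the 8 measured member genes and 0.0035 for all genes. The comparison is a description, since the lists and members were chosen with earlier results known.

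The genes of FAS ligand and TRAIL were dim on both arrays. FASLG, the FAS ligand gene, read 143.3 with p53 on and 202.6 with p53 off, and its second probe set was under the floor. TNFSF10, the gene of TRAIL, read 116.6 with p53 on and 87.7 with p53 off on the brightest of its 3 probe sets, and the other 2 were under the floor. TNF and LTA, which encode ligands of the TNF receptors, were not measured. TNFSF15, the ligand of TNFRSF25, was well above the floor and 1.90-fold lower, at 536.2 with p53 on and 1021 with p53 off. None of the 3 measured ligands was past 2-fold.

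Among the other death domain receptors and soluble decoys, 1 of 5 measured genes was higher by 2-fold or more and 1 lower by 2-fold or more. Over all measured genes the shares were 15.3% and 13.5%. EDAR, the ectodysplasin receptor, was 10.8-fold higher, at 2392 with p53 on and 222.4 with p53 off on its single probe set. TNFRSF21, which carries a death domain, was 2.18-fold lower, at 2049.9 with p53 on and 4470.3 with p53 off. TNFRSF1A, the main receptor for TNF, read 651.7 with p53 on and 883.9 with p53 off, a log2 ratio of -0.44.

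Of 5 measured adaptors and kinases beside FADD, 3 were lower by 2-fold or more and none was higher to that extent, with a median log2 ratio of -1.05, where 13.5% of all measured genes were lower. Every measured probe set of these 3 is an _s_at or _x_at one, so none of the 3 has a ratio once those types are left out. CASP8AP2, which encodes a protein that binds the caspase-8 death effector domains and also acts in histone gene expression, was 3.60-fold lower, at 275.6 with p53 on and 991.3 with p53 off. DAXX, a FAS-binding protein that is also a histone chaperone, was 3.34-fold lower, at 307.7 with p53 on and 1026 with p53 off. FAF1, a FAS-associated factor, was 2.07-fold lower, at 1061 with p53 on and 2197 with p53 off, with all 3 of its measured probe sets past 2-fold. TRADD, the adaptor of the TNF receptor, and MLKL, the effector of necroptosis, had log2 ratios of -0.28 and -0.17.

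Regulators of the receptor complexes went both ways, with 3 of 16 higher by 2-fold or more and 2 lower by 2-fold or more. These counts are near the shares over all measured genes, 15.3% higher and 13.5% lower. CYLD, a deubiquitinase that acts on RIPK1-containing complexes, was 3.06-fold higher, at 546.9 with p53 on and 178.8 with p53 off. NOL3, an inhibitor of death receptor signalling, was 2.83-fold higher, at 2726 with p53 on and 961.8 with p53 off. OTULIN, a deubiquitinase of linear ubiquitin chains, was 2.72-fold higher, at 1479.7 with p53 on and 543.9 with p53 off. The lowest log2 ratio on their other measured probe sets was -0.25 for CYLD, -0.33 for NOL3 and 0.19 for OTULIN. DEDD, a protein with a death effector domain, was 2.27-fold lower, at 815.0 with p53 on and 1852 with p53 off. CUL3, the scaffold of a ubiquitin ligase that modifies caspase-8, was 2.13-fold lower, at 4396 with p53 on and 9370 with p53 off. XIAP and BIRC2, of the inhibitor of apoptosis family, had log2 ratios of -0.23 and 0.31.

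Downstream of caspase-8, 1 of 5 measured genes was higher by 2-fold or more and none was lower to that extent. The shares over all measured genes were 15.3% higher and 13.5% lower. CASP6, an effector caspase, had 2 probe sets, with 1944 with p53 on and 726.8 with p53 off on the one used for the count (2.67-fold), and 2099 with p53 on and 460.9 with p53 off on the other (4.55-fold). BID, which caspase-8 cuts to engage mitochondria, was higher on all 3 probe sets. They read 2912 with p53 on and 1911 with p53 off for the brightest (1.52-fold), 2337 with p53 on and 560.1 with p53 off (4.17-fold), and 1601 with p53 on and 619.6 with p53 off (2.58-fold). Of 5 other caspases measured, CASP2 was 2.72-fold lower, at 939.7 with p53 on and 2555 with p53 off, and none was higher by 2-fold or more. The 7 measured probe sets of CASP2 had log2 ratios from -1.44 to 0.20, with 1 above 0.

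**Figure D3:**
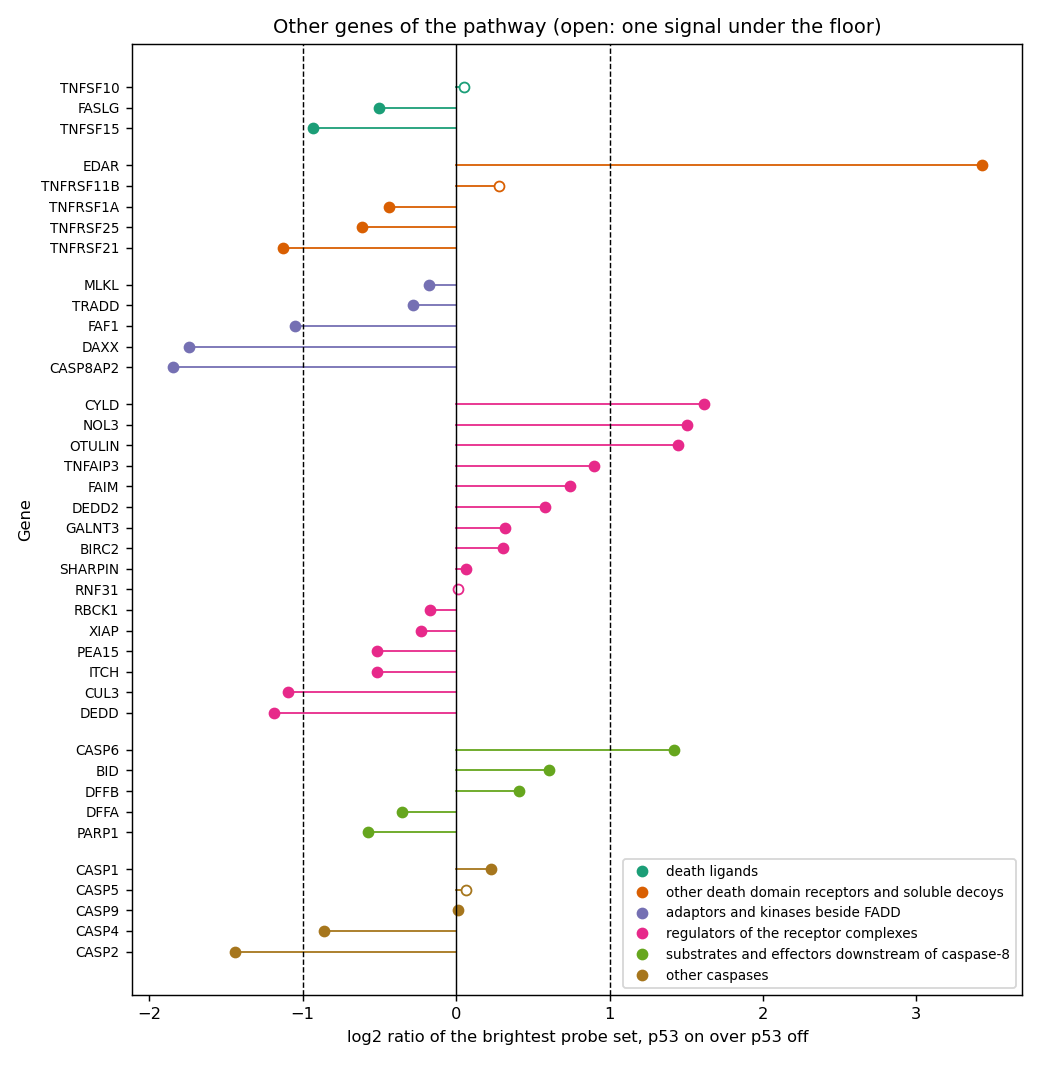
Log2 ratio of p53 on over p53 off for the brightest probe set of each of 39 measured pathway genes outside the 9, grouped by list and sorted within it (open, 1 signal under the floor), with dashed lines at 2-fold. EDAR stands furthest to the right at 3.43, and CASP8AP2 furthest to the left at -1.85.

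**Figure D4:**
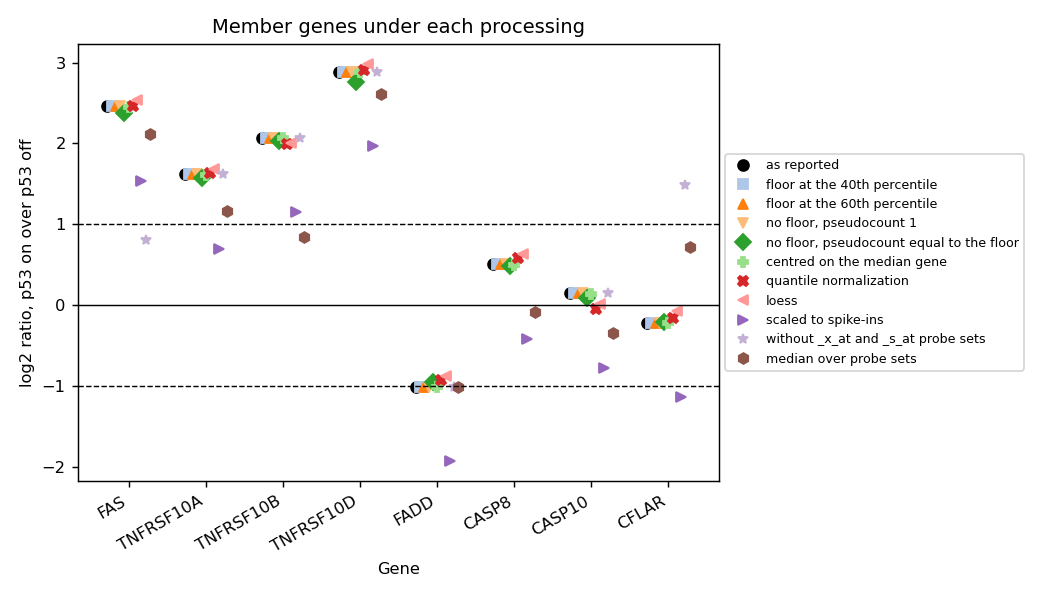
Log2 ratio of p53 on over p53 off for the 8 measured member genes as reported and under up to 10 other ways of processing, with dashed lines at 2-fold. TNFRSF10D lies at 1.96 or above in all of them, whereas CFLAR runs from -1.14 to 1.48.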

How the data were processed

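The deposited value of a probe set is a linear signal intensity, and MAS5 is the tool that the submitters' processing notes name for these 2 arrays. The software version and its settings were not given in the sources read. The mean after trimming 2% at each end was 500.1 on both arrays. Gene names came from the annotation that GEO holds for the platform, with symbols updated through Entrez identifiers to RefSeq (GRCh38.p14), which held 41037 of the 41091 identifiers. The 62 control probe sets, 1801 with several symbols and 11721 unnamed here were left out of gene comparisons.

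Signals under the floor of 112.4 were raised to it before log2 ratios were formed. Single values per gene are those of the probe set with the highest mean signal, and the named genes were all members with all probe sets, pathway genes past 2-fold, the ligands and BID. Some items that this rule covers are not reported here. Pathway genes named beyond this rule were chosen after their values were seen. With 1 array per condition no test was made, and the number of arrays limits the precision. The members, lists and settings were chosen with earlier results of these data known. Promoter and neighbour descriptions were added after seeing the data. The script was checked on simulated data. The alternatives were a floor at the 40th or the 60th percentile, pseudocounts of 1 or the floor, median centring, quantile normalization, loess (span 0.3), spike-in scaling, leaving out _x_at and _s_at probe sets, a 1.5-fold threshold and the median over probe sets. Python 3.11.15, numpy 2.4.6, pandas 2.3.3, statsmodels 0.14.6 and matplotlib 3.10.9 were used.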

Additional observations from a re-analysis of the deposited data

How the results depend on the processing

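The member genes higher by 2-fold or more numbered 3 or 4 under every one of 11 alternatives, against 4 as reported (FAS, TNFRSF10A, TNFRSF10B and TNFRSF10D, each with a positive ratio wherever it was run). TNFRSF10A dropped out with spike-in scaling (0.70) and TNFRSF10B with the median over probe sets (0.85), and without _x_at and _s_at probe sets CFLAR took the place of FAS. With spike-in scaling, 7 member probe sets were higher by 2-fold or more and 4 lower (14 and 1 as reported), 2 member genes were lower instead of 1 (FADD at -1.93 and CFLAR at -1.14), and 1 other pathway gene was higher and 20 lower instead of 5 and 7. The whole distribution shifts under that setting, with 5.86% of all measured genes higher and 41.4% lower by 2-fold or more. Without _x_at and _s_at probe sets, 6 member probe sets were higher by 2-fold or more, with fewer probe sets counted (12 instead of 32). Of all measured genes, 15.4% were higher there. In that setting 2 of 23 other pathway genes were lower, where 12.4% of all measured genes were. There CFLAR reversed to 1.48 and FAS, left with its dim probe set, gave 0.81. No member gene was lower by 2-fold or more (0) with a pseudocount equal to the floor, quantile normalization or loess. Of all measured genes, 7.67%, 13.7% and 12.3% were lower in these 3 settings, so a count of 0 among 8 genes is close to those shares. Member probe sets lower numbered 2 with the floor at the 40th percentile, 3 without a floor and a pseudocount of 1, and 3 at the 1.5-fold threshold. Of all measured genes, 13.5%, 18.5% and 25.9% were lower in these settings. Other pathway genes higher numbered 8 of 39 at 1.5-fold and 3 of 39 with the median over probe sets. Of all measured genes, 25.9% and 12.7% were higher in these 2 settings. For values set by the floor or the threshold, the setting itself is the cause. Spike-in scaling divides every p53 on signal by the median spike-in ratio of 1.89. It thus lowers each ratio with both signals above the floor by that same factor. Why the spike-ins differed between the arrays was not tested. For quantile normalization and loess the cause was not tested. Dim genes, TNFRSF10C and CASP10 above all, are limited by signal near the floor. No paired analysis was possible because each condition has 1 array.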

Other observations

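Genes next to the members in the RefSeq order were looked up, 3 protein-coding genes on each side of each locus. Of 24 such neighbours 21 were measured, 7 of them higher by 2-fold or more and 2 lower by 2-fold or more, with a median log2 ratio of 0.20. Over all measured genes 15.3% were higher and 13.5% lower to that extent. The 4 TRAIL receptor genes lie next to each other, and the nearest gene on one side was CHMP7, of the membrane-remodelling ESCRT machinery, at 1554 with p53 on and 1627 with p53 off. R3HCC1, the next one on that side, was 1.85-fold lower. The third gene on the other side, EGR3, an early response gene, was higher, at 285.6 with p53 on and 67.0 with p53 off (at least 2.54-fold). CFLAR, CASP10 and CASP8 also adjoin one another, and STRADB, a pseudokinase gene beyond them, was 2.87-fold higher, at 559.3 with p53 on and 194.9 with p53 off. Beside FAS, ACTA2, the smooth muscle actin gene, was 2.20-fold higher and STAMBPL1, a deubiquitinase gene, 4.52-fold lower. Also there, ANKRD22 was 4.03-fold lower and IFIT2, an interferon-induced gene, was higher, at 383.4 with p53 on and 191.3 with p53 off. Beside FADD, ANO1, a chloride channel gene, was at least 4.03-fold higher, SHANK2, a scaffold gene, 3.26-fold higher and CTTN, the cortactin gene, 2.22-fold higher, while PPFIA1, a liprin gene, had a ratio of 1.08.

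Outside the members, 16 TNF receptor superfamily genes were found by a symbol that begins with TNFRSF. Superfamily genes with other symbols, such as EDAR, were not among them. TNFRSF1A, TNFRSF11B, TNFRSF21 and TNFRSF25 were also among the pathway genes above. Of the 16, 13 were measured, 3 higher by 2-fold or more and 1 lower by 2-fold or more. The higher ones were TNFRSF11A, the RANK receptor gene, at 470.7 with p53 on and 111.0 with p53 off (at least 4.19-fold), TNFRSF19, at 622.8 with p53 on and 218.8 with p53 off (2.85-fold), and TNFRSF18, at 316.7 with p53 on and 152.7 with p53 off (2.07-fold). TNFRSF21 was the lower one. These counts stand beside the 15.3% and 13.5% of all measured genes. These genes were looked up after the member values were known.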
